A study of Mus musculus with 4 samples.

Results

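The coagulation and fibrinolysis factors F2, F5, F7, F10, F11, F13b, Serpinc1, Serpind1, Plg and Proc were examined in the liver of F1 mice. They were chosen by name for their place in the clotting system, with earlier results of these data known. All 10 were among the 8797 genes listed with an expression value, and 7 of the 10 also had a B6-allele frequency. Liver mRNA (poly(A) RNA) of 4 female mice aged 5 months was sequenced. B6 and MSM are inbred mouse strains, and each mouse was an F1 hybrid that carried a B6 and an MSM copy of every autosomal gene in the same nuclei. A pair of them was born to MSM mothers by B6 fathers (MSM-mother mice), and a pair came from the reciprocal cross, with B6 mothers and MSM fathers (B6-mother mice). The labels give no treatment or engineered allele, and the mice of a cross are stated to be biological replicates, with nothing on litters, so p-values measure the spread between these mice.

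Blood clotting proceeds through a cascade in which circulating protease zymogens activate each other until thrombin, made from prothrombin, turns fibrinogen into fibrin. Serpins and the protein C pathway restrain the cascade, and plasmin, made from plasminogen, dissolves the clot. Hepatocytes make most of these plasma proteins and secrete them into the blood.

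Expression was given in FPKM, a fragment count divided by transcript length and by library total, so that levels can be compared between genes. The B6-allele frequency is the share of B6 reads among the reads of a gene that could be assigned to either strain, so that 0.5 stands for equal use of both alleles. The summed FPKM ranged from 529024 to 671875 per mouse, and r of log2(FPKM + 1) over genes, which are not independent replicates, was 0.961 to 0.978 for pairs of mice. A frequency was listed for 3632 genes, of which few lay near the start of a chromosome. Beyond 100 Mb on chromosomes 1 to 15 and X, or 10 Mb on chromosomes 16 to 19, 3527 of 3929 genes (89.8%) had a frequency, whereas below these coordinates 96 of 4849 (1.98%) had it. F2, F7, F10 and F11 lay below the coordinates and the other 6 factors lay beyond them.

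In the mm10 build, the 3 factors on chromosome 1 were F13b (139501702 to 139523752), Serpinc1 (160978585 to 161005863) and F5 (164151838 to 164220277), all on the plus strand. F2 was on chromosome 2 (91625320 to 91636414, minus strand), Serpind1 on chromosome 16 (17331371 to 17343575, plus strand) and Plg on chromosome 17 (12378608 to 12419385, plus strand). Chromosome 8 held F7 (13026034 to 13035809, plus strand), F10 (13037308 to 13056676, plus strand) and F11 (45241174 to 45262031, minus strand). F7 and F10 were separated by 1498 bp, and F11 lay 4657 bp from Klkb1, the gene of plasma prekallikrein. Serpind1 lay within Pi4ka over all of its 12205 bases, on the other strand. Stretches on the other strand were also shared by F5 with the lincRNA Gm16548 (380 bases), by Serpinc1 with Zbtb37 (2942 bases) and Gm37072 (837 bases), by Serpind1 with Gm24927 (107 bases) and by Plg with Slc22a3 (426 bases). On the same strand, where strand cannot separate the reads, F5 shared 355 bases with the pseudogene Gm16588 and Serpinc1 shared 1172 bases with Gm37729, neither of them among the listed genes. The library kit kept the strand of the RNA and the strand was set at alignment, while the setting used for counting is not given in the sources used here.

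The 100 bases before the start site are printed for the 3 factors whose alleles differed in the test described further on (F5, Serpind1 and Serpinc1) and for the 3 factors with a match to a liver factor motif in this stretch (F13b, F10 and F11). The sequences are those of RefSeq on GRCm38.p6, the build of mm10, the reference sequence of B6. Bases that differ in MSM were not used here. Capitals mark a motif match.
F5 (chr1:164151735-164151834, + strand): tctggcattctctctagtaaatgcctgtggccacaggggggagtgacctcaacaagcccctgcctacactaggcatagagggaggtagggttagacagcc
Serpind1 (chr16:17331271-17331370, + strand): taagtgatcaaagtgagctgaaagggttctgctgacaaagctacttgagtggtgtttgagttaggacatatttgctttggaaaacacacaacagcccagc
Serpinc1 (chr1:160978483-160978582, + strand): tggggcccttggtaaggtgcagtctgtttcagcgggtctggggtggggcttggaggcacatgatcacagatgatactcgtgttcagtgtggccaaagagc
F13b (chr1:139501607-139501706, + strand): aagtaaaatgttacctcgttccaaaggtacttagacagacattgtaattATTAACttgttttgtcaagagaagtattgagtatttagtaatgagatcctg
F10 (chr8:13037208-13037307, + strand): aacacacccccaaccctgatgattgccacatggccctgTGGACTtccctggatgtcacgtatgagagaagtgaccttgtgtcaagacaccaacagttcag
F11 (chr8:45262032-45262131, - strand): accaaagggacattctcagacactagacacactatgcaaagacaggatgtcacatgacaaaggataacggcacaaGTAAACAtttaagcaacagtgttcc

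RefSeq windows of 250 bases before to 50 after the start were matched for 8 of the 10 factors, all but Plg and Proc, and 5 short motifs were searched on both strands. GTTAAT, a half-site of HNF1, matched in F13b from position -51 to -46 (read as ATTAAC on the plus strand of the window) and in F2 from 9 to 14 bases after the start. It was present in 7.10% of all 32851 windows. AGTCCA, a core of HNF4 sites, matched in F10 from -62 to -57 and was present in 14.1% of windows. TGTTTAC, a FOXA motif, matched in F11 from -25 to -19 and was present in 3.65% of windows. TTGCGCAA, the C/EBP palindrome, and TATAAA, the TATA box, had no match in the 8 windows, and were present in 0.183% and 13.6% of all windows. No motif overlapped another, and a match of letters is not evidence of binding. The G and C share of the 100 bases ranged from 31.0% in F13b to 65.0% in F7.

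The factors differed widely in level, by 37.6-fold between the means of the highest and the lowest, and 6 of the 10 were among the 500 genes with the highest mean FPKM. The coefficient of variation over the 4 mice was 3.90% to 16.5%, with a median of 7.79%, compared with a median of 11.4% over all genes. This comparison was not matched on level, as the median gene was at 11.5 FPKM and the lowest factor at 34.8 FPKM. In bulk liver, fewer cells of a type and less RNA per cell cannot be told apart.

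Among the protease zymogens, F2 encodes prothrombin. F2 was at 1112 and 971 FPKM in MSM-mother mice and at 1050 and 1161 FPKM in B6-mother mice. F7, the zymogen that binds tissue factor to start clotting, was at 111 and 110 FPKM in MSM-mother mice and at 119 and 117 FPKM in B6-mother mice. F10, whose product converts prothrombin to thrombin, was at 271 and 229 FPKM against 251 and 269 FPKM. The crosses overlapped in F2 and F10, while both F7 values with an MSM mother lay below both with a B6 mother. F11, a zymogen of the contact pathway activated by factor XII and thrombin, had the lowest level of the 10, at 30.7 and 35.5 FPKM in MSM-mother mice and 39.1 and 33.8 FPKM in B6-mother mice.

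F5, the cofactor of factor X in the complex that makes thrombin, was at 68.3 and 93.2 FPKM in MSM-mother mice and at 96.5 and 101 FPKM in B6-mother mice. Replicate 1 of the cross with an MSM mother was far below the other 3 mice, and F5 had the highest coefficient of variation of the 10 factors. F13b encodes the carrier subunit of factor XIII, which crosslinks fibrin. It was at 116 and 97.3 FPKM in MSM-mother mice and at 103 and 112 FPKM in B6-mother mice, with the crosses overlapping.

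Of the inhibitors, Serpinc1 encodes antithrombin and had the highest mean level of the 10, 1306 ± 70.8 FPKM (SD, n = 4 mice). It was at 1333 and 1205 FPKM in MSM-mother mice and 1314 and 1370 FPKM in B6-mother mice, which overlapped. Serpind1, which encodes heparin cofactor II, was at 323 and 303 FPKM in MSM-mother mice and 368 and 386 FPKM in B6-mother mice, and the crosses did not overlap. Proc (chromosome 18, 32123126 to 32139570, minus strand) encodes protein C, whose active form inactivates factors V and VIII. Proc was at 366 and 338 FPKM in MSM-mother mice and at 330 and 370 FPKM in B6-mother mice, so that the values of one cross lay within the range of the other. Plg encodes plasminogen. It was at 1169 and 1142 FPKM in MSM-mother mice and at 1417 and 1404 FPKM in B6-mother mice, without overlap.

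From the highest to the lowest mean FPKM, the order was Serpinc1, Plg, F2, Proc, Serpind1, F10, F7, F13b, F5 and F11. The ranges over the 4 mice were separate between F2 and Proc (3.06-fold between the means), Serpind1 and F10 (1.35-fold), F10 and F7 (2.24-fold), and F5 and F11 (2.58-fold). The other neighbours in the order overlapped. Serpinc1 exceeded Plg in 2 of 4 mice, and Proc exceeded Serpind1 in 2 of 4 mice.

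**Figure D1:**
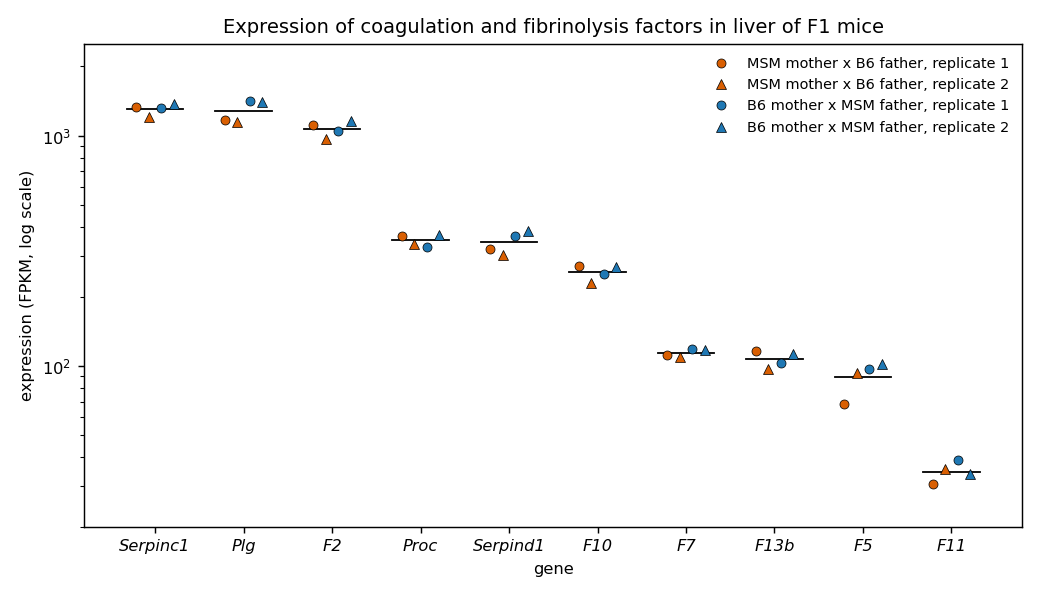
Expression of the 10 factors in FPKM on a log scale, with a point for each of the 4 mice (colour for the cross, shape for the replicate) and a bar for the mean. Serpinc1, Plg and F2 lie at or above 971 FPKM in every mouse, and F11 lies between 30.7 and 39.1 FPKM.

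The other genes of the clotting system were taken from a list of 46, of which 34 were among the listed genes. The fibrinogen chains were above every factor of the 10, with mean levels of 1841 ± 67.0 FPKM for Fga, 2743 ± 104 FPKM for Fgb and 2376 ± 146 FPKM for Fgg (SD, n = 4 mice). Mean levels of genes that work with one of the 10 were 17.4 FPKM for Pros1 (protein S, the cofactor of protein C), 92.1 FPKM for Klkb1, 268 FPKM for F12 (factor XII), 124 FPKM for F9 (factor IX) and 3.60 FPKM for F8 (factor VIII). Lman1 and Mcfd2, the cargo receptor that carries factors V and VIII out of the endoplasmic reticulum, were at 68 and 105 FPKM.

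The first question was whether both alleles of each factor were used equally. More reads of F5, Serpind1 and Serpinc1 were assigned to the B6 allele than to the MSM allele in every mouse. On average this was by 1.36-fold, 1.30-fold and 1.16-fold, and a skew from mapping was not tested. In Proc, F13b and Plg the alleles differed by less, and no test call was made. The 6 factors beyond the coordinates had mean frequencies of 0.485 to 0.577, far from use of a single allele.

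The B6-allele frequency of F5 was 0.567 and 0.588 in MSM-mother mice and 0.580 and 0.574 in B6-mother mice, above 0.5 in 4 of 4 mice. Serpind1 was at 0.573 and 0.564 in MSM-mother mice and 0.563 and 0.558 in B6-mother mice. Serpinc1 was at 0.530 and 0.542 in MSM-mother mice and 0.540 and 0.540 in B6-mother mice. Every one of these values lay above 0.5, and F5 and Serpind1 lay above Serpinc1 in every mouse.

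Proc was at 0.515 and 0.519 in MSM-mother mice and 0.517 and 0.513 in B6-mother mice. F13b was at 0.511 and 0.521 in MSM-mother mice and 0.511 and 0.520 in B6-mother mice. Both were above 0.5 in all 4 mice, and close to the median frequency of 0.510 over all genes (quartiles 0.470 and 0.553). Plg was the single factor below 0.5 in all mice, at 0.491 and 0.487 in MSM-mother mice and 0.484 and 0.479 in B6-mother mice. Thus 5 of the 7 factors were above 0.5 in all 4 mice, as were 33.9% of all genes with a frequency, and 1 was below 0.5 in all 4, as were 22.8%.

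The SD over the 4 mice of these 6 factors was 0.00252 to 0.00878. The 352 genes beyond the coordinates with a mean FPKM at least that of F5, the lowest of the 6, had a median SD of 0.0126, and all genes beyond the coordinates had a median of 0.0266. F2 stood apart, at 0.75 and 0.5 in MSM-mother mice and 0 and 0.353 in B6-mother mice. It lay below the coordinate on its chromosome, where the SD had a median of 0.289 over genes, and its own SD was 0.313. No frequency was listed for F7, F10 and F11.

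**Figure D2:**
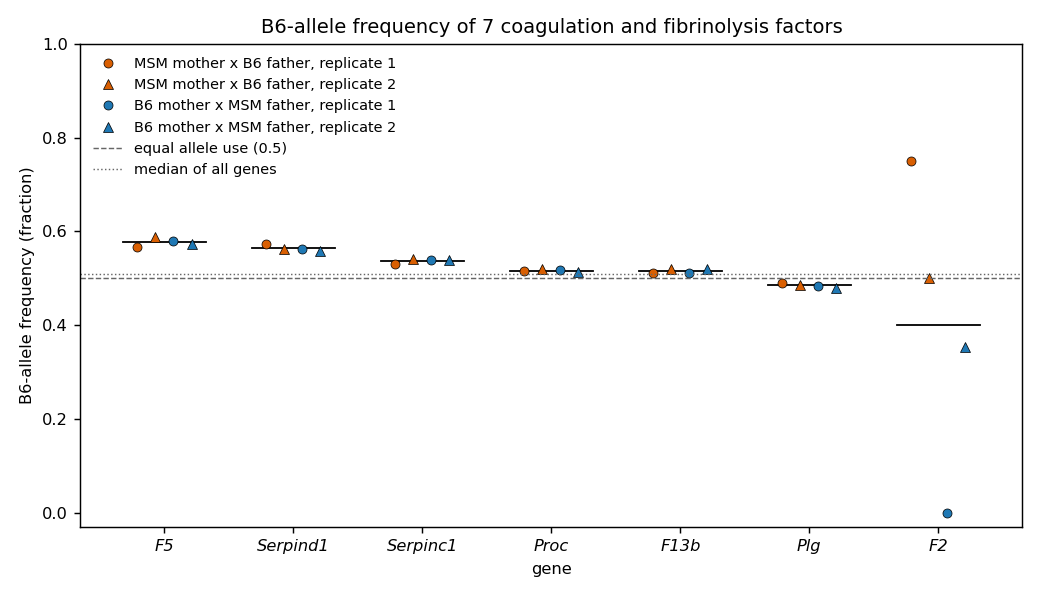
B6-allele frequency of the 7 factors that had it, with a point for each mouse and a bar for the mean of 4 mice. The dashed line is equal use of both alleles and the dotted line is the median of all genes (0.510). F5, Serpind1 and Serpinc1 lie above both lines in every mouse, and F2 runs from 0 to 0.75.

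For a test of the difference from equal use, log2 odds (B6 against MSM) were taken of the frequencies, kept within 0.01 and 0.99, and limma was fitted over all 3632 genes. Log2 odds of 0 are equal use, and a positive value is more B6 reads. F5 had log2 odds of 0.45 (SE 0.05, limma with Benjamini-Hochberg adjusted p = 0.0115), with a 95% interval of the frequency from 0.553 to 0.601. Serpind1 had 0.38 (SE 0.04, limma adjusted p = 0.0129, interval 0.543 to 0.586). Serpinc1 had 0.22 (SE 0.04, limma adjusted p = 0.0364, interval 0.515 to 0.560). These 3 of 7 factors were past the threshold of 0.05, all toward B6, where 36.2% of all genes were called in either direction and 22.6% toward B6.

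The other 4 did not pass. Proc had log2 odds of 0.09 (limma adjusted p = 0.169, interval of the frequency 0.495 to 0.538) and F13b of 0.09 (limma adjusted p = 0.189, interval 0.493 to 0.538). Plg had -0.09 (limma adjusted p = 0.199, interval 0.464 to 0.507). These 3 intervals lie within 0.464 to 0.538. F2 had -1.48 (SE 1.16, limma adjusted p = 0.376), and its interval from 0.0310 to 0.801 set hardly any bound.

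With any 1 of the 4 mice left out, log2 odds stayed at 0.42 to 0.48 for F5, 0.36 to 0.39 for Serpind1 and 0.20 to 0.23 for Serpinc1. Such a fit leaves 1 mouse in a cross and a single residual degree of freedom per gene. The calls were not kept there, and calls over all genes fell as well, so the loss is not particular to these factors. Serpinc1 also lost its call when each mouse was shifted to a median log2 odds of 0 over all genes (limma adjusted p = 0.0721), a scale on which its log2 odds were 0.16. The same held with the replicate number as a block (limma adjusted p = 0.0926) and with a variance trend on mean FPKM (limma adjusted p = 0.0608), the latter chosen after the data were seen. At the thresholds of the study for biased genes, a mean frequency of at least 0.8 or at most 0.2, none of the 7 factors was counted, where 3.19% of all genes were.

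Of the other genes of the clotting system, 16 had a frequency, with a median of 0.544, compared with 0.516 for the 7 factors and 0.510 for all genes. By the same limma test 9 of the 16 were called, 6 toward B6 and 3 toward MSM, where 36.2% of all genes were called, 22.6% toward B6 and 13.6% toward MSM. With any 1 of the 4 mice left out, fewer of the 16 were called, as held for all genes. Such fits leave 1 mouse in a cross. Kng2, a kininogen gene, was used almost exclusively from the B6 allele, with a mean frequency of 0.997 ± 0.00169 (SD, n = 4 mice), and was the single gene of the 16 past 0.8 or 0.2. Kng1, the neighbouring kininogen gene with a similar sequence, was at 0.627 ± 0.0156, and reads that match both genes could make these values uncertain. Pros1 was at 0.579 ± 0.0214 (log2 odds 0.46, limma adjusted p = 0.0152), and Habp2, a protease that acts on factor VII, at 0.586 ± 0.00988 (log2 odds 0.50, limma adjusted p = 0.0081).

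Both parts of the cargo receptor of factor V were called toward B6, as were 22.6% of all genes. Lman1 was at 0.567 ± 0.0113 (limma adjusted p = 0.0158) and Mcfd2 at 0.557 ± 0.0189 (limma adjusted p = 0.0216). A link with the allele use of F5 was not tested. Toward MSM, Vkorc1, which recycles the vitamin K needed by prothrombin, factors VII and X and protein C, was at 0.410 ± 0.0109 (log2 odds -0.52, limma adjusted p = 0.0099). Apoh, which encodes beta-2-glycoprotein I, was at 0.461 ± 0.00661 (log2 odds -0.22, limma adjusted p = 0.0318). Fgb was at 0.311 ± 0.0975 (log2 odds -1.19, limma adjusted p = 0.0058), with 0.207 and 0.25 in MSM-mother mice and 0.389 and 0.4 in B6-mother mice. Fgb and Fga (0.575 ± 0.130, not called) lay below the coordinate on chromosome 3, as F2 did on chromosome 2. Genes below the coordinates had a median SD of 0.289, so the call of Fgb is uncertain. In a fit of only the genes beyond the coordinates, 8 of 14 other clotting genes were called, where 1392 of all 3527 genes were.

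**Figure D3:**
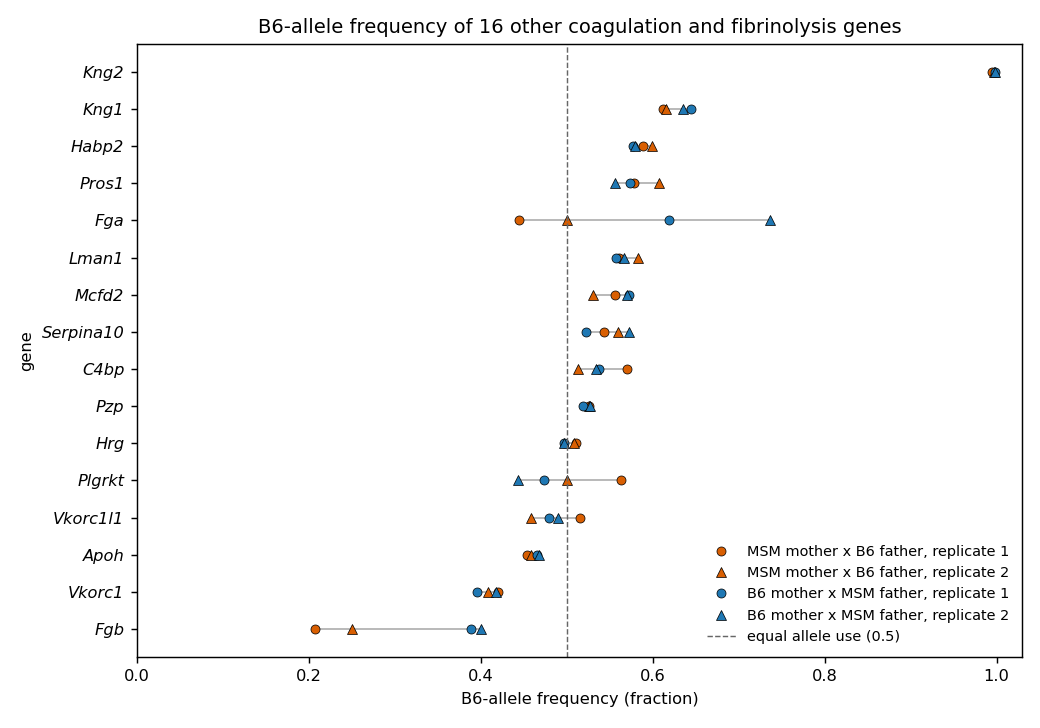
B6-allele frequency of the 16 other coagulation and fibrinolysis genes that had it, with a point for each mouse and a line over the range of 4 mice. Kng2 lies near 1, Vkorc1 and Fgb lie below 0.42 in every mouse, and the points of Fga, Fgb and Plgrkt are spread widest.

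Frequencies of neighbouring genes, with a start site within 500 kb of that of a factor, were compared by description to place each factor in its surroundings. F5 had 7 such genes, all with a frequency, from 0.379 to 0.764 with a median of 0.511, and 5 of the 7 lay below F5. The nearest, the lincRNA Gm16548, starts 379 bp from F5 on the other strand and was at 0.778 and 0.786 in MSM-mother mice and 0.727 and 0.766 in B6-mother mice. The body of Gm16548 runs back over the F5 start, so that most of it lies on the side of Scyl3. Scyl3 at 223 kb was at 0.511 ± 0.0199 (SD, n = 4 mice). Downstream of the F5 start, Slc19a2 at 97.2 kb was at 0.566 ± 0.0120 and was called toward B6 (limma adjusted p = 0.0134). F5 lay below Gm16548, above Scyl3 and close to Slc19a2.

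Serpind1 had 14 neighbours, from 0.469 to 0.576 with a median of 0.512, and 13 of the 14 lay below Serpind1. Snap29, 74.6 kb away, was the one above it, at 0.576 ± 0.0184, and Ube2l3 on the other side was at 0.526 ± 0.0454. Pi4ka, in which Serpind1 lies on the other strand, was at 0.512 ± 0.0378 with a mean level of 7.56 FPKM. Serpinc1 lay in the middle of its 6 neighbours, which ran from 0.466 to 0.827 with a median of 0.544. Of these, Cenpl at 92.1 kb was past 0.8, with 0.885 and 0.837 in MSM-mother mice and 0.816 and 0.769 in B6-mother mice, while the nearest genes Gas5 and Rc3h1 were at 0.652 ± 0.0375 and 0.507 ± 0.0309.

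F13b lay below 3 of its 4 neighbours, which ran from 0.45 to 0.657. Zbtb41, the nearest on one side at 79.4 kb, was at 0.543 ± 0.0228. Proc, with a mean of 0.516, was in the middle of 9 neighbours from 0.348 to 0.622. By position it lay between Map3k2 at 23.5 kb (0.567 ± 0.0231) and Iws1 at 71.8 kb (0.520 ± 0.0294), and its mean was below both. Plg had 3 neighbours, of which Map3k4 at 59.8 kb was at 0.492 ± 0.0216. Another was Igf2r, an imprinted gene 391 kb away, which switched between the crosses as described with Plg further on. F2 had 13 listed neighbours, F7 and F10 11 each and F11 4, none with a frequency.

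**Figure D4:**
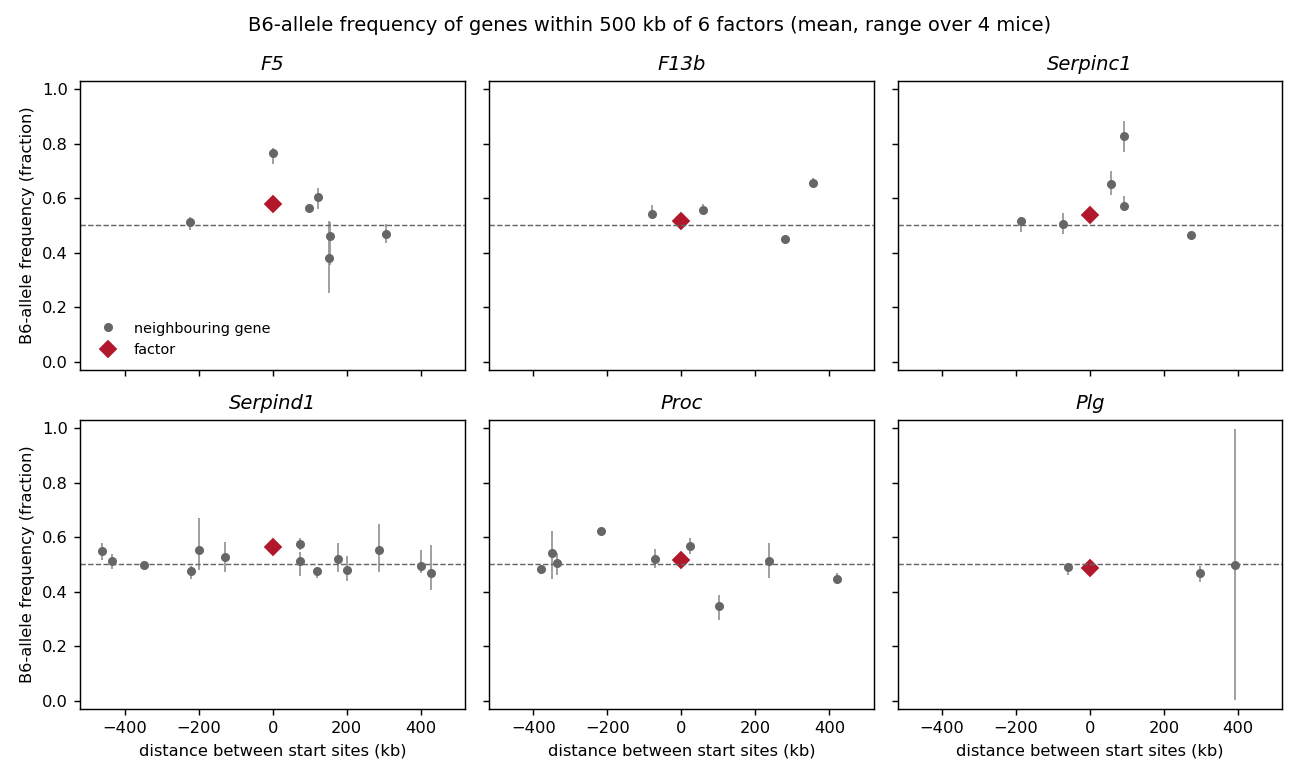
B6-allele frequency of listed genes within 500 kb of 6 factors against the distance between start sites in kb, with the mean as a point and the range over 4 mice as a line. Serpind1 lies above 13 of its 14 neighbours, and the line from near 0 to near 1 beside Plg is Igf2r.

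The second question was whether allele use depended on the parent that passed on the allele. For each factor beyond the coordinates, the mean frequency with an MSM mother and with a B6 mother differed by at most 0.00788, the value of Serpind1. F5 averaged 0.578 with an MSM mother and 0.577 with a B6 mother, and Serpinc1 0.536 and 0.540. The difference in log2 odds (MSM mother minus B6 mother) was 0.01 for F5 (95% interval -0.28 to 0.29), 0.05 for Serpind1 (-0.21 to 0.30) and -0.02 for Serpinc1 (-0.28 to 0.23). It was 0.01 for Proc (-0.24 to 0.26), 0.00 for F13b (-0.26 to 0.26) and 0.04 for Plg (-0.21 to 0.29).

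By limma, 0 of the 7 factors differed between the crosses after Benjamini-Hochberg adjustment, where 0.0826% of all genes (3 genes) did, 0.0275% higher and 0.0551% lower with an MSM mother. At an unadjusted p under 0.05, 0 of the 7 differed, where 2.7% of all genes were higher and 2.53% lower with an MSM mother. In 3 factors, F2, Serpind1 and Plg, both values with an MSM mother lay above both with a B6 mother, a pattern seen in 18.4% of all genes, and no factor had the opposite pattern, seen in 15.9%. For Plg the size was 0.489 against 0.482. Igf2r, known to be expressed from the maternal copy in liver, had 0.00554 and 0.00134 in MSM-mother mice and 0.992 and 0.997 in B6-mother mice (limma adjusted p = 4.8e-04), the allele that the labels give as maternal in every mouse. For F2 the difference was 4.54 in log2 odds with an interval from -2.43 to 11.52, which sets no useful bound. None of the 16 other clotting genes was called, and at an unadjusted p under 0.05 the 2 fibrinogen genes Fga (-1.25) and Fgb (-1.14) were lower in log2 odds with an MSM mother. A comparison of 2 mice against 2 cannot give an exact permutation p below 0.333, and limma calls at this size draw on the spread of all genes.

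The third question was whether the level of each transcript differed between the reciprocal crosses. No factor was called, and the largest differences were in F5, Plg and Serpind1, which had higher mean levels in B6-mother mice, at 99 against 80.7 FPKM for F5, 1411 against 1156 FPKM for Plg and 377 against 313 FPKM for Serpind1. On log2(FPKM + 1), the difference (MSM mother minus B6 mother) was -0.31 for F5 (SE 0.19, 95% interval -0.77 to 0.15, limma with Benjamini-Hochberg adjusted p = 0.628). It was -0.29 for Plg (SE 0.17, interval -0.72 to 0.14, limma adjusted p = 0.628) and -0.27 for Serpind1 (SE 0.16, interval -0.65 to 0.12, limma adjusted p = 0.625). The other 7 factors ran from -0.14 for F11 to 0.01 for Proc. The intervals do not show that the levels were alike, since those of F5 and Plg reach down to -0.77 and -0.72.

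By limma, 0 of 10 factors passed after adjustment, where 0.0455% of all genes (4 genes, all higher with a B6 mother) did, and 0 passed at an unadjusted p under 0.05, where 4.46% of all genes were higher and 4.41% lower with an MSM mother. In 4 of the 10, F5, F7, Serpind1 and Plg, both mice with a B6 mother exceeded both with an MSM mother, a pattern seen in 19.4% of all genes. The opposite pattern was seen in 0 of the 10 and in 23% of all genes. The median difference was -0.09 over the 10 factors, -0.12 over the 34 other clotting genes and 0.02 over all genes. F5 rested on replicate 1 with an MSM mother, and without this mouse its difference was -0.09.

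The scale of the mice mattered for these counts. When each mouse was rescaled to the same summed FPKM, an alternative for this count chosen after the data were seen, 8 of the 10 factors (all but F11 and Proc) had both B6 mother mice above both MSM mother mice, where 25.6% of all genes did. None showed the opposite pattern, which 10.9% of all genes did. Rescaling moved the median of all genes from 0.02 to -0.10, and the difference of F5 to -0.44, of Plg to -0.42 and of Serpind1 to -0.40. Proc, at 0.01 as deposited, was at -0.12 on the rescaled scale. The limma test still called 0 of the 10 factors, while over all genes it called 16 higher with a B6 mother and 4 higher with an MSM mother.

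**Figure D5:**
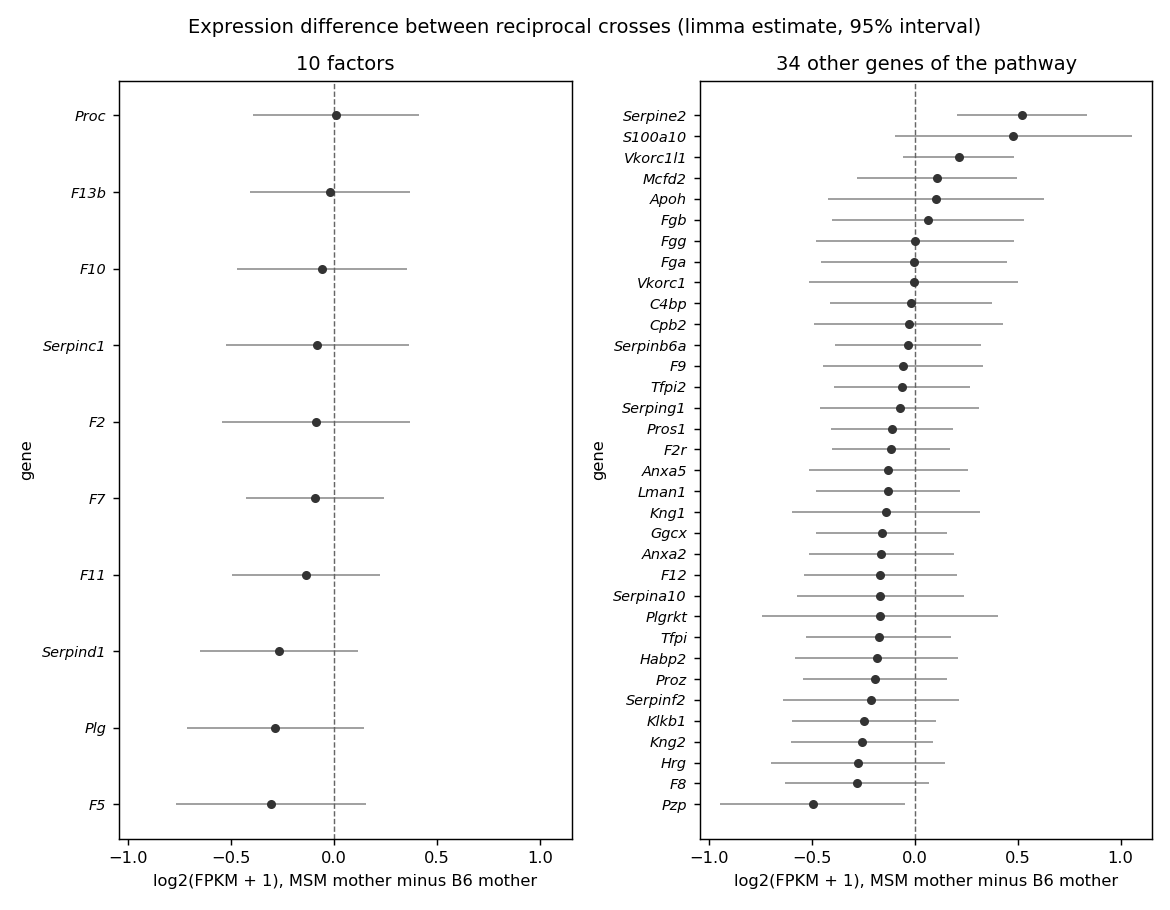
Difference of log2(FPKM + 1) between the crosses (MSM mother minus B6 mother) for the 10 factors and the 34 other genes, with the limma estimate as a point and its 95% interval as a line. The intervals of all 10 factors include 0, and Serpine2 and Pzp have intervals that do not.

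Of the 34 other clotting genes, 0 were called by limma after adjustment, and at an unadjusted p under 0.05 Serpine2, an inhibitor of thrombin and of plasminogen activators, was at 0.52 and Pzp, a protease inhibitor of the macroglobulin family, at -0.50. Both had adjusted p-values above the threshold (limma, 0.412 and 0.534). In 16 of the 34 both mice with a B6 mother exceeded both with an MSM mother (19.4% of all genes), and in 4 of the 34 the reverse was seen (23% of all genes). After rescaling to the same summed FPKM these were 22 and 2 of the 34, where 25.6% and 10.9% of all genes showed these patterns. Differences of the genes that act with a factor of the 10 were -0.25 for Klkb1, -0.17 for F12, -0.11 for Pros1, -0.13 for Lman1 and 0.11 for Mcfd2. The fibrinogen chains were at 0.00 for Fga and Fgg and 0.06 for Fgb.

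Markers of the cells in liver were read beside these levels. The label of liver was borne out by 5 of 6 hepatocyte markers listed, with Ttr at 3580 and Apoa1 at 6313 mean FPKM, though Alb was not among the listed genes and Cyp2e1 was listed at 0 in both mice with an MSM mother. The sum of the hepatocyte list was 12734 to 13313 FPKM with an MSM mother and 14146 to 18192 FPKM with a B6 mother. This order rested on Cyp2e1 alone, and without it, an alternative chosen after the data were seen, the sum was 12734 to 13313 FPKM with an MSM mother against 9270 to 11652 FPKM with a B6 mother. Of the other 4 listed markers, Ttr, Apoa1 and Ass1 were higher in both MSM-mother mice than in both B6-mother mice, a pattern seen in 23% of all genes. None of 4 cholangiocyte markers and none of 4 platelet and megakaryocyte markers was listed, and listed genes had a mean of at least 2.50 FPKM.

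The sums of most other lists also did not overlap between the crosses, and none of these sums was tested. The sum of 6 of 6 sinusoidal endothelial markers was 111 to 118 FPKM with an MSM mother and 128 to 132 FPKM with a B6 mother. That of 3 of 5 Kupffer cell markers was 95.3 to 104 FPKM against 126 to 133 FPKM, and that of 4 of 5 red cell markers 128 to 308 FPKM against 449 to 769 FPKM. The sum of 3 of 5 stellate cell markers was 112 to 128 FPKM with an MSM mother and 90.6 to 109 FPKM with a B6 mother. By single genes, 4 of 6 endothelial, 3 of 3 Kupffer cell and 2 of 4 red cell markers were higher in both B6-mother mice. This pattern was seen in 19.4% of all genes. Of the stellate cell markers 1 of 3, Dcn, was higher in both MSM-mother mice, and the others overlapped. The acute phase list (6 of 6 genes), which rises in inflamed liver, summed to 4158 to 4751 FPKM against 3768 to 4205 FPKM, and these sums overlapped. Of its genes, 4 of 6 were higher in both MSM-mother mice than in both B6-mother mice, by 2.05-fold for Saa1, 1.68-fold for Saa2, 1.80-fold for Lcn2 and 1.38-fold for Hp. Values higher in both MSM-mother mice were seen in 23% of all genes. The part of these differences in the levels of the 10 factors was not tested.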

How the data were processed

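mRNA was measured in the liver of 4 F1 females. Per the labels, libraries were made with a directional poly(A) kit. The authors used Trim Galore for trimming and TopHat2 for alignment to mm10, in which SNP positions were masked and a single alignment per read was kept, then split alleles with SNPsplit and counted them with Cuffdiff. Tool versions are not given in the sources used here. The deposited values are expression in FPKM and the B6-allele frequency, a fraction from 0 to 1. With no read counts, the depth behind a value is unknown, so no interval or detection limit was computed for a single mouse. A supplementary sheet states that frequencies need more than 10 allele-discriminating reads.

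Frequencies, limited to 0.01 to 0.99, were turned into log2 odds and tested with limma 3.58.1 in R 4.3.3, with a cross term and no replicate block, over genes with a frequency in all mice. Expression was tested with limma, with a variance trend, on log2(FPKM + 1), keeping genes of at least 1 FPKM on average, a scale that understates changes of low genes. All tests were two-sided, Benjamini-Hochberg adjusted p-values were read at 0.05, and the tests were tried on simulated data. The simulated effects were larger than those estimated for any factor, so this trial does not show the power at the sizes reported here. Positions came from GENCODE M21 on mm10 or RefSeq, for 8778 of 8797 genes. Python 3.11.15, numpy 2.4.6, pandas 2.3.3 and matplotlib 3.10.9 were used.

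The factors and lists were chosen with earlier results of these data known. The text names every factor, clotting genes that were called, lay at or past 0.6 or 0.4, were fibrinogen chains or work with a factor, the nearest neighbour with a frequency on either side of a factor, and neighbours past 0.8 or 0.2. Neighbours that this rule covers are in part not reported here. Pi4ka, which overlaps Serpind1, Serpine2, Pzp and Plgrkt fall outside this rule, and so do F9 and Slc19a2, and they were named after their values were seen. Alternatives were other limits, scales, filters, thresholds, normalizations, pseudocounts, variance models, leaving out each mouse and a replicate block.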

Additional observations from a re-analysis of the deposited data

Results flagged for a closer look

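The factors, the other clotting genes and the neighbours that had a frequency were searched. In 4 of these genes each cross lay on its own side of equal allele use or the crosses differed in the test. Igf2r, next to Plg, differed by -13.26 in log2 odds (MSM mother minus B6 mother, limma with Benjamini-Hochberg adjusted p = 4.8e-04), which is as large as the limits of 0.01 and 0.99 permit. Hrg, a plasma protein that binds plasminogen and heparin, lay above 0.5 in both mice with an MSM mother and below it in both with a B6 mother, with a difference of 0.0124 in mean frequency (limma adjusted p of the log2 odds = 0.932). Map3k4, a neighbour of Plg, had the same pattern with a difference of 0.0288 (limma adjusted p = 0.885). Wdr33, a neighbour of Proc, had it with a difference of 0.0621 (limma adjusted p = 0.873). These 3 were picked by the side of 0.5 alone, without a test of that pattern, and its share over all genes was not computed. The wider pattern of both values with an MSM mother above both with a B6 mother was seen in 18.4% of all genes.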

How the results depend on the processing

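With any single mouse left out, 0 to 0 of the 7 factors (3 with all mice) and 1 to 3 of the 16 other clotting genes (9 with all mice) were called for unequal allele use, and 181 to 514 of all genes (1316 with all mice). These tests hold a single residual degree of freedom per gene. Limma adjusted p-values were then 0.0543 to 0.0845 for F5, 0.0627 to 0.0914 for Serpind1 and 0.107 to 0.159 for Serpinc1. Serpinc1 was past the threshold with other limits, filters, the frequency itself or no cross term, and lost its call with the shift to a median of 0 (0.0721), a variance trend on mean FPKM (0.0608) and both (0.119), the last 2 chosen after seeing the data. The cause was not tested. Thresholds of 0.68 and 0.32, or 0.9 and 0.1, changed the 116 biased genes to 287 and 60.

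With replicate number as a block, Serpinc1 was no longer called (limma adjusted p = 0.0926), F5 (0.0466) and Serpind1 (0.0490) were, 775 genes were called for unequal use, and 285 for expression against 4 without the block. Same-numbered mice deviated together with r of 0.146 in log2 odds and 0.00375 in expression over genes, and nothing in the labels says that numbers share a litter or day.

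The difference in expression between crosses changed sign for Proc (0.01) to -0.12 after rescaling and -0.12 after quantile normalization, and with a mouse left out ran from -0.0733 to 0.0926 for Proc, -0.180 to 0.0634 for F10, -0.145 to 0.105 for F13b and -0.185 to 0.0104 for F2. That in log2 odds ran from -0.0246 to 0.0307 for F13b, -0.0542 to 0.0677 for F5, -8.6e-04 to 0.0236 for Proc and -0.0585 to 0.0111 for Serpinc1. No call between crosses was gained by a factor in any alternative. Over all genes, expression calls numbered 20 after rescaling and 13 to 21 with a mouse left out, and frequency calls 1 with wider limits on the frequency and 0 to 6 with a mouse left out, against 3. Depth per value is unknown and could not be weighed.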

Other observations

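Cyp2e1 was listed at 0 FPKM in both mice with an MSM mother and at 4876 and 6541 FPKM with a B6 mother, while a B6-allele frequency of 0.516 and 0.546 was listed for the former and 0.523 and 0.539 for the latter. An FPKM of 0 in at least 1 mouse was listed for 33 genes, none of them among the 10 factors.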
